A study of Rattus norvegicus with 9 samples.

Results

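Collagen genes were followed in rat synovial fibroblasts, which build the tissue that lines a joint, across 3 culture conditions in 9 RNA sequencing libraries. The members were every gene of the deposited table whose symbol is written as a collagen chain (Col, a number, a, a number), apart from Col2a1. That rule found 42 of the 17298 genes in the table, and 24 of the 42 reached a mean of at least 1 FPKM over the 9 libraries and were tested among 11372 such genes. FPKM expresses sequenced fragments relative to transcript length and to all mapped fragments of a library. It therefore compares genes per length and is relative within a library. The genome build named in the submitters' processing notes is a mouse build, while the gene identifiers of the table are those of the rat, and which of them the reads were aligned to is not known here. All cells were labelled wild type (WT) synovial fibroblasts. The control group was grown in normal culture without the cytokine IL-1β. The second group was grown in normal culture with IL-1β. The third group received IL-1β and then shared a transwell, a dish divided by a porous membrane, with dermal fibroblasts in the upper chamber. It is called the co-culture below, and each group had 3 libraries. Dermal fibroblast co-culture without IL-1β is not analysed here, so a difference between the co-culture and the control carries both. Not given in the sources used here are the dose and timing of IL-1β, the strain and age of the rats, and whether separate animals or cultures gave the libraries. P-values then measure only how these libraries spread, which may be technical.

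Collagens are the main structural proteins of connective tissue, built from chains that wind together into long helices. Fibrillar collagens make the tensile fibres of tissue, basement membrane collagens form sheets under and around cells, and FACIT collagens decorate the surface of fibrils. Other members form beaded filaments, hexagonal networks, membrane-spanning proteins or proteoglycan-bearing links. In the joint lining, synovial fibroblasts deposit this matrix and also secrete enzymes that break it down.

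The FPKM sums were 679774 to 741810 per library. Of the fibroblast markers all 9 listed genes were measured in every group, with summed levels of 15870 to 17260 FPKM. That narrow range covered unequal single genes, of which 5 were higher and 3 lower with IL-1β, 1 higher and 6 lower in the co-culture than with IL-1β, and 3 higher and 4 lower in the co-culture than in the control (the test is described with the first comparison). Over all genes 20.5% were higher and 31.2% lower in the first of these comparisons. The shares were 33.3% and 16.7% in the second and 12.4% and 7.91% in the third. With quantile normalization or an equal FPKM sum the first count was 4 higher and 4 lower. The second count was 1 higher and 7 lower with median-of-ratios scaling and 2 higher and 6 lower with quantile normalization. The third count was 2 higher and 4 lower with quantile normalization and 3 higher and 5 lower with an equal FPKM sum. Named after their values were seen, the collagen-binding proteoglycan Dcn stood at 641 ± 4.57 FPKM in the control, 3112 ± 110.0 FPKM with IL-1β and 1196 ± 9.64 FPKM in the co-culture, and the intermediate filament gene Vim at 4902 ± 52.7, 2114 ± 2.73 and 4342 ± 58.8 FPKM. The endothelial genes were near 0, with summed levels of 0.69 to 1.44 FPKM over 7 genes. Of the 6 macrophage and leukocyte genes, Ptprc was at no more than 0.13 FPKM, but others were present. Cd14 stood at 13.5 ± 0.585 FPKM in the control, 22.7 ± 0.821 FPKM with IL-1β and 15.85 ± 0.304 FPKM in the co-culture. Cd68 stood at 2.30 ± 0.454, 4.77 ± 0.88 and 2.19 ± 0.439 FPKM. These 2, the only ones tested, were higher with IL-1β and lower in the co-culture than with IL-1β. Chondrocyte markers were present and also differed between the groups, as given beside the genes they moved with. In bulk RNA, fewer cells of a type and less RNA per cell cannot be told apart.

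In the untreated control the 42 collagen genes summed to 8201 ± 330.0 FPKM (mean ± SD, n = 3, as for all group levels here). This was 1.20 ± 0.0621% of the FPKM of the library. Fibrillar genes made up 79.5 ± 0.137% of the collagen sum. The order of the mean levels began with Col1a1 at 3169.6, Col3a1 at 1734, Col1a2 at 759 and Col5a2 at 509 FPKM. Col6a1 at 428, Col6a2 at 378, Col5a1 at 238 and Col4a1 at 213 FPKM followed. These 8 genes stood in the same order in all 3 control libraries. Col14a1 and Col15a1, at 95.4 and 95.1 FPKM, overlapped, as did Col6a3 and Col18a1 at 64.5 and 64.1 FPKM.

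**Figure D1:**
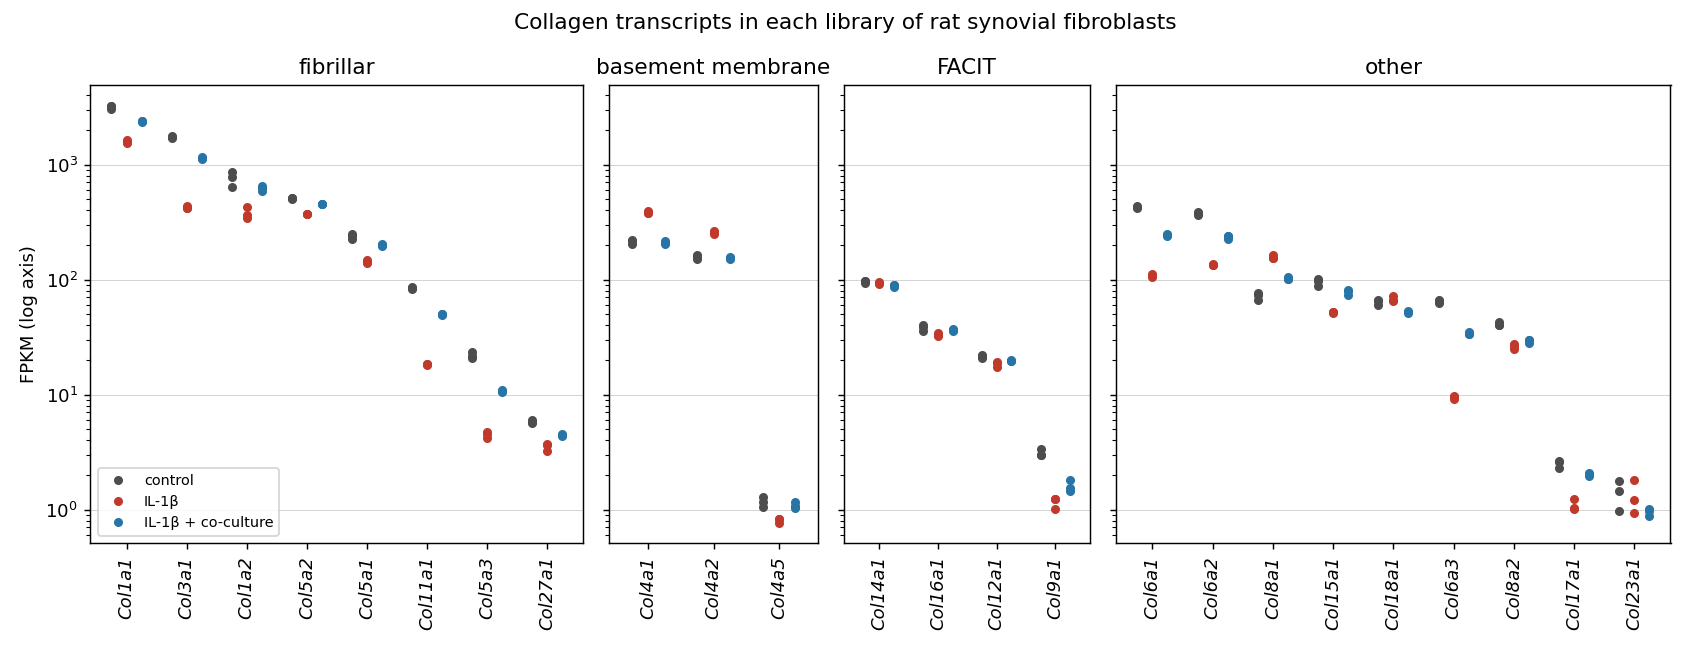
FPKM of the 24 tested collagen genes in each library, on a log axis, by class and in falling order of the mean over the 9 libraries; each point is 1 library, grey for the control, red for IL-1β and blue for IL-1β with co-culture. The 3 points of a group lie close together for most genes, red lies lowest for all 8 fibrillar genes, and red lies highest for Col4a1, Col4a2 and Col8a1.

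The first comparison asked how collagen transcripts differ between synovial fibroblasts with and without IL-1β. With IL-1β all 8 fibrillar genes and all 3 tested chains of the beaded filament collagen VI were lower, and Col4a1, Col4a2 and Col8a1 were higher. Of the 24 genes, 21 passed the test (limma on log2(FPKM + 1), Benjamini-Hochberg adjustment over 11372 genes, threshold 0.05). All adjusted p-values on single genes are from that fit. Of these, 18 were lower and 3 higher. Over all genes tested 51.7% passed, 31.2% lower and 20.5% higher, so a passing difference was common in this comparison. A log2 difference of at least 1 was seen in 7 of the 24 collagen genes and in 4.61% of all genes. The median log2 difference was -0.68 over the collagen genes and -0.04 over all genes. The IL-1β and control libraries did not overlap for 21 of the 24 collagen genes, against 58.3% of all genes. The split of all genes depended on the scaling: with median-of-ratios scaling 2887 were higher and 2877 lower, and with libraries scaled to an equal FPKM sum 1594 were higher and 5134 lower. The collagen genes gave 4 higher and 18 lower under the former and 3 higher and 19 lower under the latter.

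Among the fibrillar genes the chains of collagen I, the main fibre of most connective tissue, were the most abundant. Col1a1 (gene ID 29393) stood at 3227, 3243 and 3039 FPKM in the 3 control libraries and at 1649.5, 1550.1 and 1560.1 FPKM with IL-1β. Every IL-1β library was below every control library. The log2 difference was -0.998 ± 0.036, adjusted p = 6.17e-10 (estimate ± SE on the log2(FPKM + 1) scale, as for all differences here, while folds are ratios of mean FPKM). Col1a2 (gene ID 84352), the partner chain of the same molecule, stood at 776, 857 and 643 FPKM in the control and at 427, 343 and 366 FPKM with IL-1β. Again the groups were apart, with a log2 difference of -0.997 ± 0.12, adjusted p = 0.000191, although the libraries of this gene spread more than those of the other abundant collagens. Col3a1 (gene ID 84032), the chain of collagen III that forms thin fibres beside collagen I, fell further. It stood at 1749, 1759 and 1693 FPKM in the control and at 432, 421 and 422 FPKM with IL-1β, a log2 difference of -2.03 ± 0.029, adjusted p = 1.77e-13, or 4.08-fold lower.

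Collagen V is a minor component of collagen I fibrils that regulates how they begin and how thick they grow. Its chain Col5a2 (gene ID 85250) stood at 511, 512 and 504 FPKM in the control and 374, 369 and 368 FPKM with IL-1β, and Col5a2 had the smallest fall of the fibrillar genes, -0.46 ± 0.025, adjusted p = 2.6e-08. Col5a1 (gene ID 85490) stood at 240.2, 248 and 225 FPKM and at 147, 140.0 and 143 FPKM, a log2 difference of -0.73 ± 0.039, adjusted p = 2.07e-08. The less abundant chain Col5a3 (gene ID 60379) went from 21.7, 23.5 and 20.9 FPKM to 4.74, 4.55 and 4.15 FPKM, a log2 difference of -2.07 ± 0.055, adjusted p = 4.1e-11, or 4.91-fold lower. The 3 genes of collagen V thus fell by unequal amounts, and the groups did not overlap for any of them. Col27a1 (gene ID 298101), a fibrillar collagen best known from cartilage, stood at 5.68, 6.04 and 5.82 FPKM in the control and 3.68, 3.62 and 3.2 FPKM with IL-1β, a log2 difference of -0.61 ± 0.057, adjusted p = 3.42e-06.

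Col11a1 (gene ID 25654), a chain of the minor fibrillar collagen of cartilage, had the largest fall of the fibrillar genes on the log2(FPKM + 1) scale, from 85.1, 85.3 and 82.8 FPKM to 18.4, 18.1 and 18.3 FPKM. The log2 difference was -2.15 ± 0.031, adjusted p = 1.59e-13, or 4.62-fold lower. Col9a1, a FACIT chain that is also typical of cartilage, fell as well (its values are given with the FACIT genes). Over the same groups the 7 measured chondrocyte markers summed to 200 to 214 FPKM in the control, 25.4 to 27.6 FPKM with IL-1β and 83.8 to 86.8 FPKM in the co-culture. Of the 6 tested, 5 were lower with IL-1β and none was higher. Those 5 were Col2a1, Acan, Sox9, Hapln1 and Comp, and the same 5 were higher in the co-culture than with IL-1β. Over all genes 31.2% were lower with IL-1β, and 33.3% were higher in the co-culture than with IL-1β. With libraries scaled to an equal FPKM sum all 6 were lower with IL-1β and all 6 higher in the co-culture. Most of each summed marker level was Col2a1, at 157 ± 6.39 FPKM in the control, 18.1 ± 1.4 FPKM with IL-1β and 56.4 ± 1.14 FPKM in the co-culture. Acan stood at 24.1 ± 0.81, 2.22 ± 0.0321 and 13.3 ± 0.772 FPKM. Matn1, the lowest of the 7, was at 0 in all control libraries and at no more than 0.04 FPKM elsewhere. The part of cartilage-like cells in the Col11a1 and Col9a1 differences was not tested.

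RefSeq promoter sequences of the rat assembly GRCr8 were set beside some of the collagen genes, for the reason given with each. All 42 members were found in the GRCr8 gene table under equal symbols, and a promoter was listed for 34, among them 19 of the 24 tested. The first 250 bases of each listed promoter were searched on both strands for 5 motifs. These bases need not all lie before the start of transcription, and for Col6a3 they ran into the annotated gene. The motif counts below use the full 250 bases. These were the CCAAT box, the TATA box letters TATAAA, the GC box letters GGGCGG, the AP-1 motif TGANTCA (N is any base) and the NF-kB motif. The sequences run 5′ to 3′ on the strand of the gene, in lower case with the matches in capitals. Shown are the fibrillar gene that fell most on that scale and the Col1a2 promoter, with a TATAAA match.
Col11a1, chr2:204508886-204509135, plus strand: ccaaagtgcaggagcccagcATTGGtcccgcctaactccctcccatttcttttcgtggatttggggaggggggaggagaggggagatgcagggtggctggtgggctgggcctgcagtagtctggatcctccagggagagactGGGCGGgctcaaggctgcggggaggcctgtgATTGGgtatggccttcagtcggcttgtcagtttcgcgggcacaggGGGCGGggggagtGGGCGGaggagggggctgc
Col1a2, chr4:33518307-33518556, plus strand: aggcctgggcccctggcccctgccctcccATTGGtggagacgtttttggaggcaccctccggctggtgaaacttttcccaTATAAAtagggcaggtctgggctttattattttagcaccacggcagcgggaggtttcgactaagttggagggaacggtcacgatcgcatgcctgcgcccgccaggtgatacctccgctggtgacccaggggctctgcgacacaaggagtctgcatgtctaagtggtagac
The Col11a1 window held 3 GGGCGG and 2 CCAAT matches, the latter read on the opposite strand, and no TATAAA. The Col1a2 window held 1 CCAAT match on the opposite strand and 1 TATAAA. A match is a description, not a site or a cause. Over the 19 tested members CCAAT was found in 6 (34.3% of all 27457 promoters), TATAAA in 2 (13.1%), GGGCGG in 12 (32.4%), TGANTCA in 1 (6.36%) and the NF-kB motif in 2 (6.41%). Of the 14 members with a promoter that were lower with IL-1β, 4 held CCAAT and 7 GGGCGG, and of the 3 that were higher, 2 held CCAAT and all held GGGCGG.

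Basement membrane collagen went the other way. Col4a1 (gene ID 290905), which with Col4a2 makes the collagen IV network found in nearly all basement membranes, stood at 215, 220.0 and 205 FPKM in the control and at 397, 375 and 379 FPKM with IL-1β. Every IL-1β library was above every control library, with a log2 difference of 0.85 ± 0.037, adjusted p = 3.48e-09, or 1.80-fold higher. Col4a2 (gene ID 306628) moved with it, from 160.4, 165 and 149.9 FPKM to 265, 251 and 257 FPKM, a log2 difference of 0.70 ± 0.038, adjusted p = 2.81e-08. By mean level Col4a1 was the eighth collagen gene in the control and the third with IL-1β, where its libraries overlapped those of Col1a2. Col4a5 (gene ID 363457), a chain of a tissue-restricted collagen IV, was near the threshold of 1 FPKM, at 1.06, 1.17 and 1.28 FPKM and 0.82, 0.77 and 0.82 FPKM, and was lower by the same test (log2 difference -0.27 ± 0.074, adjusted p = 0.0103). It reached the mean of 1 FPKM through the other groups. Endothelial cells and pericytes also make collagen IV. The 7 endothelial markers summed to 0.69 to 0.91 FPKM in the control, 0.96 to 1.44 FPKM with IL-1β and 0.76 to 0.81 FPKM in the co-culture, and none reached a mean of 1 FPKM. The 6 measured pericyte and smooth muscle markers summed to 15.5 to 15.9 FPKM in the control and 7.5 to 8.85 FPKM with IL-1β and 12.96 to 14.21 FPKM in the co-culture. Of the 3 tested, 2 were lower with IL-1β and 2 higher in the co-culture than with IL-1β, against 31.2% and 33.3% of all genes. With median-of-ratios scaling 1 of them was higher in the co-culture than with IL-1β. The part of such cells in the collagen IV differences was not tested.

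The genes Col4a2 and Col4a1 lie head to head, with start sites 76 bases apart in the GRCr8 annotation, so they share an upstream interval. It is shown because both genes rose with IL-1β, in the direction of Col4a1 with the Col4a2 start at its left end.
Col4a2 to Col4a1, chr16:84885521-84885596, plus strand: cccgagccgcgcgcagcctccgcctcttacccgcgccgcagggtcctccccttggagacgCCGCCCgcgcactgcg
The capitals mark 1 GGGCGG match, read on the opposite strand. The 4 other motifs were not in these letters. In the 250-base windows, which run past the interval into the partner gene, Col4a1 and Col4a2 each held 1 CCAAT match and Col4a2 also held the NF-kB motif. The pairs Col4a4 and Col4a3, and Col4a6 and Col4a5, are arranged alike in the annotation, and Col4a3, Col4a4 and Col4a6 were at no more than 0.14 FPKM in any library.

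The median log2 difference of the 4 tested FACIT genes was -0.20, and they ran from a gene that did not pass to Col9a1, which fell by more than the collagen V chains Col5a1 and Col5a2. Col14a1 (gene ID 314981), the most abundant of them and a fibril-surface collagen, stood at 97.1, 96.4 and 92.7 FPKM in the control and at 95.4, 90.6 and 93.5 FPKM with IL-1β. Its groups overlapped, the log2 difference was -0.03 ± 0.032, adjusted p = 0.403 and its 95% interval ran from -0.10 to 0.04. With libraries scaled to an equal FPKM sum Col14a1 passed (-0.12, adjusted p = 0.0139), and over the 19 alternatives its adjusted p ranged from 0.0139 to 0.77. Col16a1 (gene ID 366474), a minor collagen that links fibrils to other matrix, stood at 38.7, 39.9 and 35.8 FPKM and 34.2, 32.6 and 32.6 FPKM. Col12a1 (gene ID 25683), a collagen of tendon and ligament fibrils, stood at 22.1, 21.7 and 20.6 FPKM and 19.3, 17.3 and 18.7 FPKM. Both were lower with IL-1β without overlap, by small log2 differences of -0.20 ± 0.043, adjusted p = 0.00249 and -0.21 ± 0.045, adjusted p = 0.00219. The low gene Col9a1 (gene ID 305104) went from 2.98, 3.35 and 2.97 FPKM to 1.24, 1.01 and 1.23 FPKM, a log2 difference of -0.93 ± 0.080, adjusted p = 1.68e-06.

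Of the other collagens, collagen VI changed most. Collagen VI is assembled from unlike chains into beaded filaments around cells. Col6a3 (gene ID 367313), its largest chain, stood at 65.3, 66.3 and 62.0 FPKM in the control and at 9.43, 9.2 and 9.65 FPKM with IL-1β, a log2 difference of -2.65 ± 0.038, adjusted p = 1.59e-13, or 6.85-fold lower. This was the largest difference of the 24 genes. Col6a1 (gene ID 294337) went from 431, 435 and 419 FPKM to 112, 106 and 110.3 FPKM (log2 difference -1.96 ± 0.030, adjusted p = 2.52e-13). Col6a2 (gene ID 361821) went from 382, 385 and 367 FPKM to 137, 133 and 133 FPKM (log2 difference -1.49 ± 0.031, adjusted p = 4.24e-12). The fall was thus 6.85-fold for Col6a3, 3.91-fold for Col6a1 and 2.82-fold for Col6a2, and the groups were far apart for each. The promoters of the chains that fell most are given for comparison, with the Col6a3 window limited to bases outside the gene.
Col6a3, chr9:98887061-98887208, minus strand: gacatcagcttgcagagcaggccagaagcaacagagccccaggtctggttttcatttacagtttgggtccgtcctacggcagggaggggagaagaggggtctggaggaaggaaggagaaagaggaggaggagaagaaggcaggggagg
Col6a1, chr20:11905440-11905689, plus strand: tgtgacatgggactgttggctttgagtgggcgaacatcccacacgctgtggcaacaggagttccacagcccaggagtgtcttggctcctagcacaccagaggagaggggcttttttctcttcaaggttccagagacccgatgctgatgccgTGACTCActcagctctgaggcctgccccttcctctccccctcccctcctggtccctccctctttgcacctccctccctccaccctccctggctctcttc
The Col6a1 window held the TGANTCA match among the 19 tested members, marked in capitals, and none of the other motifs. None of the 5 motifs was in the Col6a3 letters.

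Collagen VIII forms a hexagonal network from short chains, and its chains moved in opposite directions. Col8a1 (gene ID 304021) stood at 73.2, 75.7 and 66.9 FPKM in the control and at 165, 154 and 154 FPKM with IL-1β. It rose 2.19-fold, the largest rise of the 24 genes (log2 difference 1.12 ± 0.046, adjusted p = 2.27e-09). Col8a2 (gene ID 313592) stood at 39.9, 42.5 and 40.5 FPKM and 27.5, 24.8 and 26.3 FPKM and was lower by the same test (log2 difference -0.63 ± 0.045, adjusted p = 2.88e-07). The multiplexins, basement membrane zone collagens that carry sugar chains, also differed from each other. Col15a1 (gene ID 298069) went from 97.3, 101 and 87.1 FPKM to 52.5, 52.6 and 50.9 FPKM (log2 difference -0.86 ± 0.052, adjusted p = 7.1e-08). Col18a1 (gene ID 85251), the source of the fragment endostatin, stood at 65.3, 66.5 and 60.6 FPKM and 71.3, 66.8 and 64.9 FPKM, overlapping, with a log2 difference of 0.08 ± 0.044, adjusted p = 0.174 and a 95% interval of -0.02 to 0.17. With median-of-ratios scaling it passed at 0.12 (adjusted p = 0.0479), within a range of 0.0479 to 0.832 over the 19 alternatives.

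Of the membrane-spanning collagens, Col17a1 (gene ID 294027), known from the attachment of skin epithelium, stood at 2.64, 2.58 and 2.32 FPKM in the control and at 1.01, 1.04 and 1.23 FPKM with IL-1β. It was lower, with a log2 difference of -0.75 ± 0.071, adjusted p = 3.66e-06. Col23a1 (gene ID 353303) stood at 1.45, 1.78 and 0.97 FPKM and 1.82, 1.21 and 0.93 FPKM. Its groups overlapped, and the log2 difference was -0.05 ± 0.15, adjusted p = 0.789 with a 95% interval of -0.38 to 0.27.

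**Figure D2:**
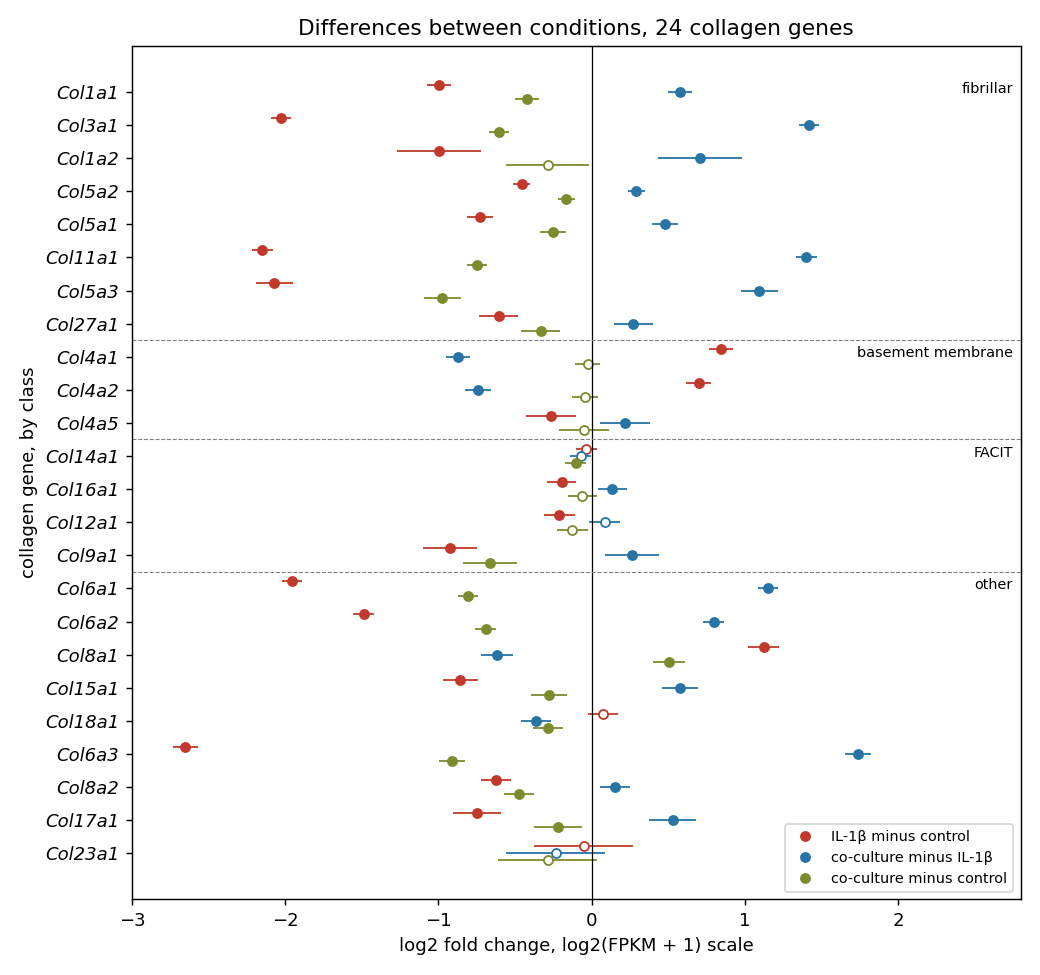
Log2 differences of the 24 collagen genes on the log2(FPKM + 1) scale, for IL-1β minus control (red), co-culture minus IL-1β (blue) and co-culture minus control (green), with 95% intervals from limma; filled points passed at an adjusted p of 0.05 and open points did not. For most genes red and blue lie on opposite sides of 0, with Col6a3 at -2.65 and 1.74, and the green point of 16 genes is filled on the lower side.

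The second comparison asked how the collagen transcripts differ between the co-culture and normal culture, both groups having IL-1β. No group here had a transwell without dermal fibroblasts. A difference therefore carries both the transwell and the dermal fibroblasts, which cannot be told apart. In the co-culture all 8 fibrillar genes and the 3 chains of collagen VI were higher than with IL-1β alone, and Col4a1, Col4a2, Col8a1 and Col18a1 were lower. Of the 24 genes 21 passed, 17 higher and 4 lower. Over all genes 50% passed, 33.3% higher and 16.7% lower. A log2 difference of at least 1 was seen in 5 collagen genes and in 2.62% of all genes, and the median log2 difference was 0.28 over the collagen genes and 0.06 over all. The libraries of the groups did not overlap for 23 of the 24, against 56.7% of all genes. With median-of-ratios scaling all genes gave 2721 higher and 2636 lower, and the collagen genes 14 higher and 5 lower. This comparison and the first share the IL-1β libraries, so opposite signs in them are not independent of each other.

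The fibrillar genes were higher in the co-culture by 0.27 to 1.42 on the log2 scale. Col3a1 stood at 1158, 1148 and 1116 FPKM in the co-culture against 425 ± 6.13 FPKM with IL-1β alone, a log2 difference of 1.42 ± 0.029, adjusted p = 9.71e-12, or 2.68-fold. Col11a1 stood at 50.4, 48.8 and 50.5 FPKM (log2 difference 1.40 ± 0.031, adjusted p = 1.48e-11). Col5a3 stood at 10.9, 10.8 and 10.4 FPKM (log2 difference 1.10 ± 0.055, adjusted p = 2.43e-08). These 3, which had fallen most with IL-1β among the fibrillar genes, had the largest differences of the class here. Col1a1 stood at 2377, 2384 and 2348 FPKM, 1.49-fold above IL-1β alone (log2 difference 0.58 ± 0.036, adjusted p = 1.41e-07). Its partner Col1a2 stood at 621, 649 and 584 FPKM (log2 difference 0.71 ± 0.12, adjusted p = 0.00151). In both collagen I chains the lowest co-culture library was above the highest IL-1β library. Col5a1 stood at 204, 201 and 194 FPKM (log2 difference 0.48 ± 0.039, adjusted p = 1.38e-06). Col5a2 stood at 456, 454 and 452 FPKM (log2 difference 0.29 ± 0.025, adjusted p = 2.08e-06). Col27a1, at 4.41, 4.39 and 4.5 FPKM, had the smallest difference of the class (log2 difference 0.27 ± 0.057, adjusted p = 0.002).

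Collagen IV was lower in the co-culture. Col4a1 stood at 210.5, 215 and 203 FPKM against 384 ± 11.8 FPKM with IL-1β alone, a log2 difference of -0.87 ± 0.037, adjusted p = 4.61e-09, or 1.83-fold lower. Col4a2 stood at 157, 154 and 149 FPKM (log2 difference -0.74 ± 0.038, adjusted p = 2.96e-08), so that both genes of the head-to-head pair printed above moved down together. Col4a5 stood at 1.17, 1.04 and 1.08 FPKM and was slightly higher (log2 difference 0.22 ± 0.074, adjusted p = 0.0292). That call was lost when any of IL-1β libraries 1, 2 and 3 or co-culture libraries 1 and 3 was left out, with adjusted p of 0.0544 to 0.0987, within 0.00351 to 0.109 over 18 alternatives. The Col4a5 call was also lost with median-of-ratios scaling (0.185, adjusted p = 0.0566) and quantile normalization (0.156, adjusted p = 0.109).

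Among the FACIT genes, Col16a1 stood at 37.3, 36.5 and 35.7 FPKM, higher than with IL-1β alone (log2 difference 0.14 ± 0.043, adjusted p = 0.0205). Col9a1 stood at 1.54, 1.44 and 1.81 FPKM, also higher (log2 difference 0.26 ± 0.080, adjusted p = 0.0172). The Col16a1 call was lost without IL-1β library 2 or 3 or co-culture library 1 (adjusted p of 0.0593 to 0.0706, and 0.00883 to 0.208 over 19 alternatives). It was also lost with median-of-ratios scaling (0.07, adjusted p = 0.208) and quantile normalization (0.10, adjusted p = 0.0947). The Col9a1 call was lost without IL-1β library 2 or co-culture library 3 (adjusted p of 0.0659 and 0.07, and 0.0104 to 0.07 over 18 alternatives). Col12a1 stood at 19.5, 19.5 and 19.9 FPKM, with a log2 difference of 0.09 ± 0.045, adjusted p = 0.14 and a 95% interval of -0.01 to 0.18. Col14a1 stood at 89.4, 86.8 and 89.8 FPKM, with a log2 difference of -0.07 ± 0.032, adjusted p = 0.0867 and a 95% interval whose upper end lay just below 0. With median-of-ratios scaling Col14a1 passed as lower (-0.14, adjusted p = 0.00456, within 0.00456 to 0.446 over the alternatives).

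Collagen VI had the largest differences among the other types. Col6a3 stood at 33.3, 33.4 and 34.7 FPKM in the co-culture against 9.43 ± 0.225 FPKM with IL-1β alone, a log2 difference of 1.74 ± 0.038, adjusted p = 1.48e-11, or 3.59-fold, the largest of the 24. Col6a1 stood at 245, 247 and 241 FPKM (log2 difference 1.15 ± 0.030, adjusted p = 6.23e-11), and Col6a2 stood at 237, 238 and 227 FPKM (log2 difference 0.80 ± 0.031, adjusted p = 2.32e-09). The order of the 3 chains by size of the difference was the same as in the first comparison. Col8a1 stood at 106, 101 and 101 FPKM and was lower (log2 difference -0.62 ± 0.046, adjusted p = 7.79e-07). Col8a2 stood at 29.7, 29.8 and 28.1 FPKM and was slightly higher (log2 difference 0.15 ± 0.045, adjusted p = 0.0147). The Col8a2 call was lost without IL-1β library 2 or co-culture library 1 or 2 (adjusted p of 0.0506 to 0.0623, and 0.00715 to 0.134 over 19 alternatives). It was also lost with median-of-ratios scaling (0.09, adjusted p = 0.134) and quantile normalization (0.10, adjusted p = 0.0984).

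The multiplexins and membrane-spanning chains again differed from each other. Col15a1 stood at 79.2, 74.0 and 81.3 FPKM and was higher (log2 difference 0.58 ± 0.052, adjusted p = 3.48e-06). Col18a1 stood at 52.5, 53.6 and 51.2 FPKM and was lower (log2 difference -0.36 ± 0.044, adjusted p = 4.04e-05), with every co-culture library below every library of the other groups. Col17a1 stood at 1.95, 2.06 and 2.04 FPKM and was higher (log2 difference 0.53 ± 0.071, adjusted p = 8.31e-05). Col23a1 stood at 0.87, 1.01 and 0.97 FPKM and did not pass, with a log2 difference of -0.23 ± 0.15, adjusted p = 0.214 and a 95% interval of -0.56 to 0.09.

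The third comparison asked how far the co-culture stood from the untreated control. Most collagen genes remained lower than in the control, by less than with IL-1β alone, and Col8a1 was the gene that was higher. Of the 24 genes 17 passed, 16 lower and 1 higher, against 20.3% of all genes, 7.91% lower and 12.4% higher. On the log2(FPKM + 1) scale no collagen gene differed by 1 or more, as did 0.422% of all genes, although Col5a3 lay at that size (-0.98, or -1.03 with a pseudocount of 0.1, and 2.06-fold lower by mean FPKM). The median log2 difference was -0.29 over the collagen genes and 0.02 over all. The groups did not overlap for 18 of the 24, against 37.8% of all genes. Scaling moved the split of all genes, from 1408 higher and 899 lower to 735 higher and 1442 lower with an equal FPKM sum, and to 1008 higher and 1166 lower with quantile normalization. The collagen genes gave 1 higher and 17 lower under the former and 1 higher and 16 lower under the latter. The control and co-culture libraries are those of the first and second comparisons, so the 3 sets of values are not independent.

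Of the fibrillar genes 7 were lower than in the control, with Col5a3 (log2 difference -0.98 ± 0.055, adjusted p = 3.04e-07), Col11a1 (log2 difference -0.75 ± 0.031, adjusted p = 1.74e-08) and Col3a1 (log2 difference -0.60 ± 0.029, adjusted p = 8.12e-08) furthest from it. Col1a1 was at 0.748 of the control level (log2 difference -0.42 ± 0.036, adjusted p = 9.05e-06). Col27a1 (log2 difference -0.33 ± 0.057, adjusted p = 0.00166), Col5a1 (log2 difference -0.25 ± 0.039, adjusted p = 0.000844) and Col5a2 (log2 difference -0.16 ± 0.025, adjusted p = 0.000736) followed. Col1a2 did not pass, with a log2 difference of -0.29 ± 0.12, adjusted p = 0.135 and a 95% interval of -0.56 to -0.01. Its control library 3, at 643 FPKM, lay below co-culture library 2, at 649 FPKM. Without that control library the difference was -0.40 (adjusted p = 0.0194, within 0.0194 to 0.294 over 19 alternatives).

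The 3 basement membrane genes were close to the control. The log2 differences were -0.03 ± 0.037, adjusted p = 0.682 for Col4a1, -0.04 ± 0.038, adjusted p = 0.484 for Col4a2 and -0.05 ± 0.074, adjusted p = 0.695 for Col4a5. Their 95% intervals ran from -0.11 to 0.06, from -0.13 to 0.04 and from -0.21 to 0.11, and the libraries of the groups overlapped for each. Col4a1, for example, stood at 215, 220.0 and 205 FPKM in the control and 210.5, 215 and 203 FPKM in the co-culture. A p that misses the threshold does not show that the levels were equal, but the intervals for Col4a1 and Col4a2 end below the differences between IL-1β and control, 0.85 and 0.70.

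Among the FACIT genes Col9a1 was lower (log2 difference -0.66 ± 0.080, adjusted p = 0.000152). Col14a1 passed narrowly (log2 difference -0.10 ± 0.032, adjusted p = 0.039). Its call was lost without control library 1 or 2 or any of the 3 co-culture libraries (adjusted p of 0.0628 to 0.134, and 0.0101 to 0.134 over 19 alternatives). The Col14a1 call was also lost without the trend and robust settings of limma (adjusted p = 0.075) and without a filter on low values (0.0534). Col12a1 did not pass (log2 difference -0.12 ± 0.045, adjusted p = 0.0759, 95% interval -0.22 to -0.03). It passed without IL-1β library 2 (adjusted p = 0.0478) and under the 3 other scalings (0.0307 to 0.0476), within 0.0307 to 0.216 over 19 alternatives. Col16a1 did not pass either (log2 difference -0.06 ± 0.043, adjusted p = 0.371, 95% interval -0.15 to 0.03).

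Of the other types, Col6a3 (log2 difference -0.91 ± 0.038, adjusted p = 1.87e-08), Col6a1 (log2 difference -0.81 ± 0.030, adjusted p = 7.54e-09) and Col6a2 (log2 difference -0.69 ± 0.031, adjusted p = 3.6e-08) were lower, at 0.524, 0.570 and 0.619 of the control level. Col8a1 was 1.42-fold higher than in the control (log2 difference 0.51 ± 0.046, adjusted p = 1.65e-05), and its partner Col8a2 was lower (log2 difference -0.47 ± 0.045, adjusted p = 2e-05). Col15a1 (log2 difference -0.28 ± 0.052, adjusted p = 0.00299) and Col18a1 (log2 difference -0.29 ± 0.044, adjusted p = 0.00085) were lower. Col18a1 differed from Col15a1 in that its level with IL-1β alone had overlapped the control. Col17a1 passed narrowly (log2 difference -0.22 ± 0.071, adjusted p = 0.0499). Its call was lost without control library 1 or 2, IL-1β library 1 or 2, or any of the 3 co-culture libraries (adjusted p of 0.055 to 0.154, and 0.0189 to 0.154 over 18 alternatives). The Col17a1 call was also lost with quantile normalization (adjusted p = 0.0626), a pseudocount of 0.1 (0.0746) and the replicate number as a block (0.0809). It was lost at the threshold without a filter on low values (0.0501) and in a fit on 2 groups (0.05). Col23a1 did not pass (log2 difference -0.29 ± 0.15, adjusted p = 0.203, 95% interval -0.61 to 0.04).

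For 16 of the 24 genes all 3 co-culture libraries lay between the IL-1β and the control libraries with no overlap, which held for 16.1% of all genes. Of the 21 collagen genes whose IL-1β and control libraries did not overlap, 16 lay between, against 27.7% of the genes with that property. The 16 were 7 fibrillar genes (all but Col1a2), Col12a1 and Col9a1, the 3 chains of collagen VI, Col8a1, Col8a2, Col15a1 and Col17a1. The 5 others were Col4a1, Col4a2, Col4a5 and Col1a2, whose co-culture libraries overlapped the control, and Col16a1, which also overlapped it.

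The summed collagen level followed the fibrillar genes. It was 8201 ± 330.0 FPKM in the control, 4279 ± 149 FPKM with IL-1β and 6137 ± 93.7 FPKM in the co-culture. These were 1.20 ± 0.0621%, 0.585 ± 0.0293% and 0.859 ± 0.0185% of the FPKM of the library. The libraries ran from 7830 to 8461 FPKM, from 4169 to 4449 FPKM and from 6029 to 6196 FPKM, so the groups did not overlap. The make-up differed too: fibrillar genes made up 79.5 ± 0.137% of the collagen sum in the control, 68.5 ± 0.196% with IL-1β and 79.0 ± 0.0928% in the co-culture. Basement membrane genes made up 4.54 ± 0.0167%, 15.0 ± 0.0989% and 5.93 ± 0.0659%, while their summed level was 373 ± 15.2, 642 ± 18.5 and 364 ± 9.55 FPKM. The beaded filament genes of collagen VI made up 10.6 ± 0.186%, 5.92 ± 0.0838% and 8.34 ± 0.0137%. FACIT genes made up 1.96 ± 0.0158%, 3.43 ± 0.0404% and 2.41 ± 0.058%, while their summed level was 160.3 ± 5.43, 147 ± 4.22 and 148 ± 1.95 FPKM. No test was made on these sums.

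**Figure D3:**
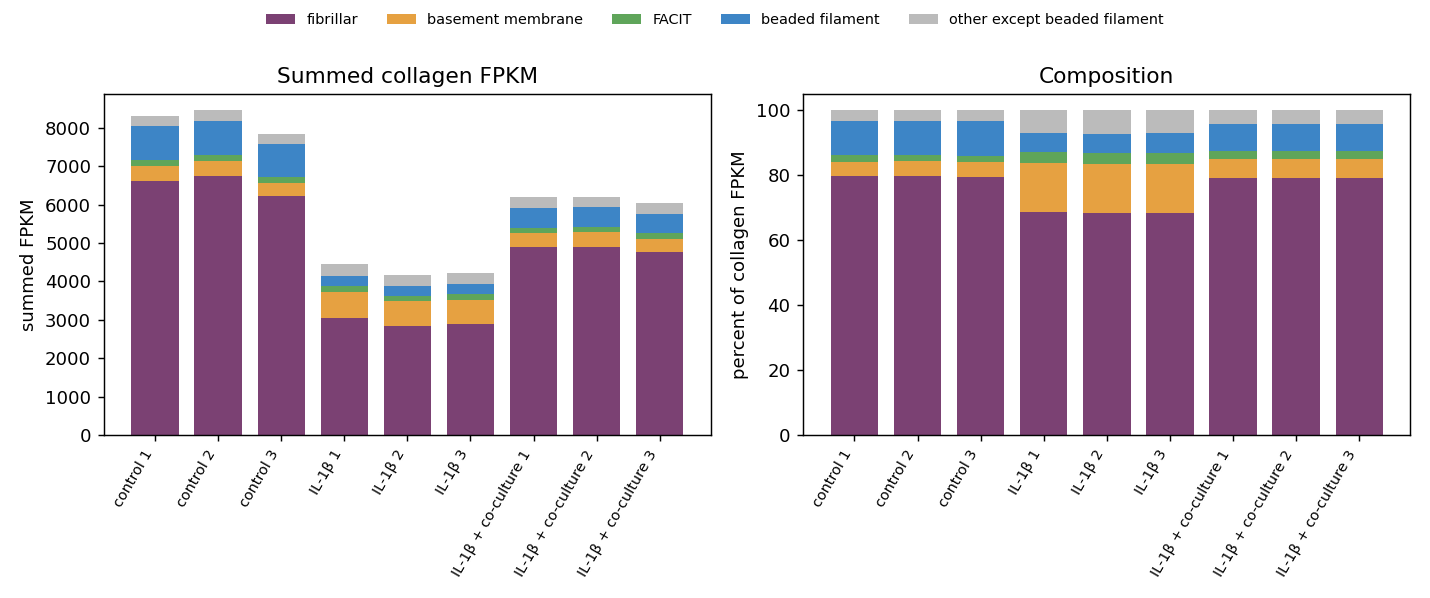
Summed FPKM of the 42 collagen genes in each library (left, bars from 0) and the same as percent of the collagen sum (right), stacked by class, with the 6 beaded filament genes of collagen VI shown apart from the other types. The IL-1β bars are the lowest, at 4169 to 4449 FPKM, and have the widest basement membrane band, about 15.0% against 4.54% in the control.

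Ratios between genes within a library compare chains that share a molecule or a fibril. They do not depend on the scaling of the library. Their absolute size depends on the gene models, not given in the sources used here, so only differences between groups are described. The ratio Col1a1 to Col1a2, whose chains form collagen I together, was 4.22 ± 0.475 in the control, 4.21 ± 0.329 with IL-1β and 3.84 ± 0.176 in the co-culture. These groups overlapped (exact two-sided permutation p = 1.0 for IL-1β against control, 0.2 and 0.3 for the others). For the other 9 ratios the IL-1β libraries overlapped neither other group. Each of those 18 comparisons gave an exact permutation p of 0.1, the smallest that 3 against 3 libraries allow, and 0.125 after adjustment over 30 comparisons, so none can pass 0.05.

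The ratio Col3a1 to Col1a1 was 0.547 ± 0.00857 in the control, 0.268 ± 0.00529 with IL-1β and 0.481 ± 0.00602 in the co-culture. Within collagen V, Col5a3 to Col5a1 was 0.0926 ± 0.00227, 0.0313 ± 0.00189 and 0.0536 ± 0.000335, and Col5a1 to Col5a2 was 0.467 ± 0.0191, 0.387 ± 0.00697 and 0.440 ± 0.00914. All 3 ratios were lowest with IL-1β. Col5a1 to Col1a1, the balance of minor to major fibril chain, was instead highest with IL-1β, at 0.0749 ± 0.00131, 0.0903 ± 0.00113 and 0.0842 ± 0.00162. Within collagen VI, Col6a3 to Col6a1 was 0.151 ± 0.00238, 0.0861 ± 0.00186 and 0.139 ± 0.0047. Col6a1 to Col6a2 was 1.13 ± 0.00542, 0.816 ± 0.0167 and 1.04 ± 0.0142, lowest with IL-1β. Col4a1 to Col4a2 was 1.35 ± 0.0162, 1.49 ± 0.0132 and 1.36 ± 0.0271. Col4a5 to Col4a1 was 0.00550 ± 0.000678, 0.00209 ± 6.1e-05 and 0.00524 ± 0.000372. The widest spread of all was in collagen VIII, where Col8a1 to Col8a2 was 1.76 ± 0.0922 in the control, 6.02 ± 0.167 with IL-1β and 3.51 ± 0.116 in the co-culture.

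**Figure D4:**
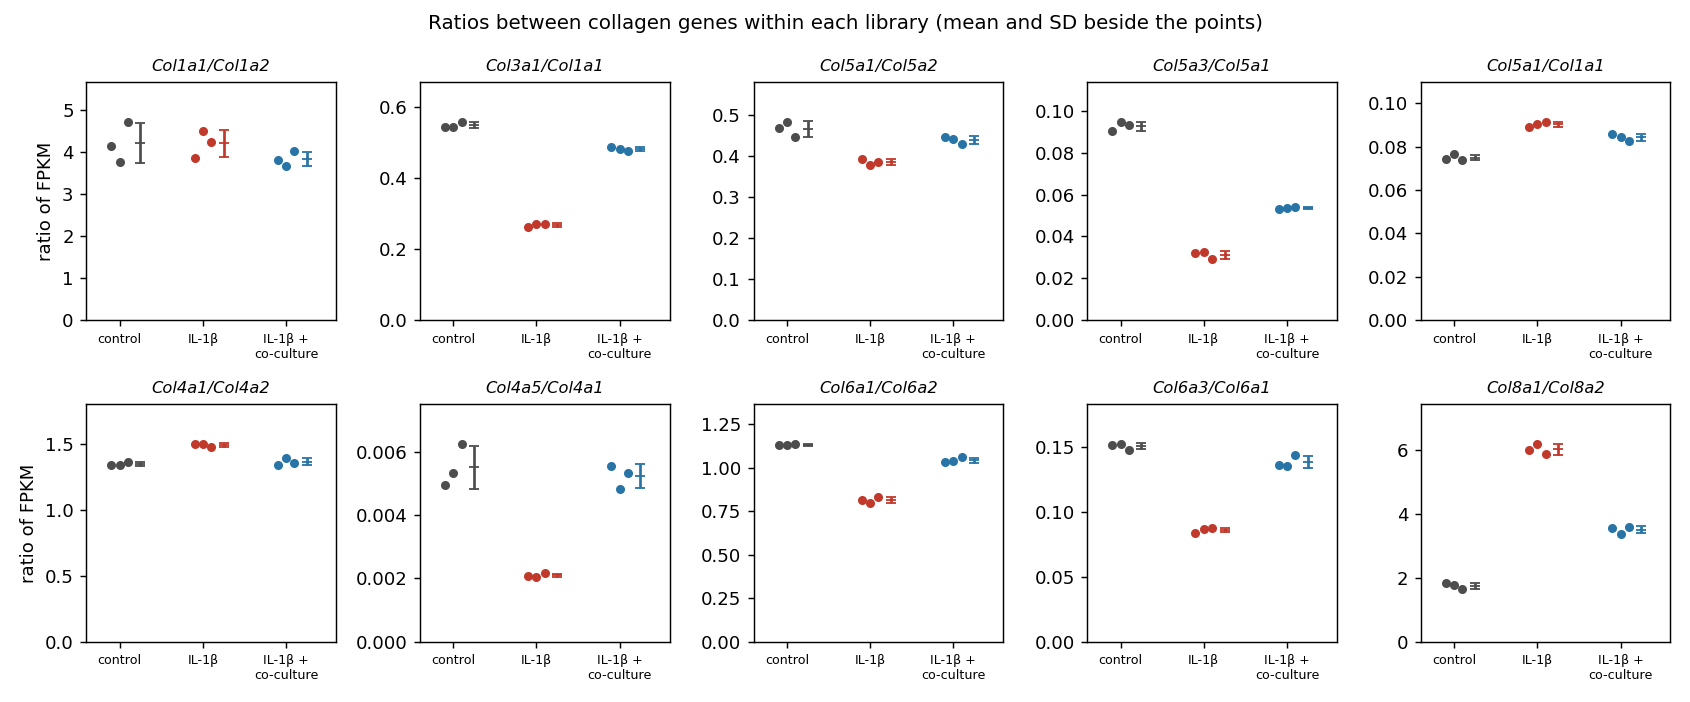
Ratios of FPKM between pairs of collagen genes in each library (points), with the mean and SD of each group beside them, on axes that start at 0; grey is the control, red IL-1β and blue IL-1β with co-culture. Only Col1a1 to Col1a2 overlaps between the IL-1β group and the others, and Col8a1 to Col8a2 runs from 1.76 in the control to 6.02 with IL-1β.

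The 18 members under a mean of 1 FPKM were Col24a1 and Col11a2 (fibrillar), Col4a3, Col4a4 and Col4a6, the FACIT genes Col9a2, Col9a3, Col19a1, Col20a1 and Col22a1, and 8 others. The others were Col6a4, Col6a5, Col6a6, Col7a1, Col10a1, Col13a1, Col25a1 and Col28a1. The highest library was at 2.03 FPKM for Col9a3, 0.87 for Col7a1, 0.54 for Col24a1, 0.34 for Col11a2, 0.32 for Col20a1 and 0.28 for Col9a2. The other 12 stayed at or under 0.14 FPKM in every library. Just under the threshold was Col9a3, with a mean of 0.954 FPKM over the 9 libraries, and just over it Col4a5, with 1.02 FPKM. In a fit without the filter (17288 genes), Col7a1, whose product anchors skin epithelium to the dermis, was higher with IL-1β. It stood at 0.19, 0.19 and 0.1 FPKM in the control, 0.73, 0.8 and 0.87 FPKM with IL-1β and 0.47, 0.63 and 0.58 FPKM in the co-culture. The IL-1β libraries were above all others, and the log2 difference from the control was 0.63 ± 0.057, adjusted p = 2.1e-05. The co-culture was below IL-1β (log2 difference -0.21 ± 0.057, adjusted p = 0.0198) and above the control (log2 difference 0.43 ± 0.057, adjusted p = 0.00133). Col9a3, a partner chain of Col9a1, stood at 1.63, 2.03 and 1.46 FPKM in the control, 0.44, 0.39 and 0.29 FPKM with IL-1β and 0.83, 0.72 and 0.8 FPKM in the co-culture. It was lower with IL-1β (log2 difference -0.97 ± 0.083, adjusted p = 1.51e-05) and higher in the co-culture than with IL-1β (log2 difference 0.38 ± 0.083, adjusted p = 0.00684), in the same libraries whose chondrocyte markers are given above. Col11a2 (log2 difference -0.26 ± 0.028, adjusted p = 8.01e-05) and Col24a1 (log2 difference -0.32 ± 0.042, adjusted p = 0.000267) were also lower with IL-1β. In that fit 36.7%, 34% and 12.4% of all genes passed in the 3 comparisons, in the order above, and of the 18 members 4, 2 and 4 passed.

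Genes that act on collagen were taken from lists of known function. Their counts are to be read against the shares of all genes, 20.5% higher and 31.2% lower with IL-1β, 33.3% and 16.7% in the co-culture against IL-1β, and 12.4% and 7.91% in the co-culture against control. Of 18 tested genes of collagen folding and hydroxylation, the steps that stabilise the helix in the endoplasmic reticulum, 12 were lower and 3 higher with IL-1β. In the co-culture 12 were higher and 2 lower than with IL-1β, and 8 were lower and 2 higher than in the control. The medians were -0.35, 0.16 and -0.13, beside -0.04, 0.06 and 0.02 over all genes. Sparc, a secreted collagen-binding protein, stood at 2445 ± 20.6 FPKM in the control, 1970.0 ± 26.5 FPKM with IL-1β and 2107 ± 13.4 FPKM in the co-culture. Serpinh1, the collagen chaperone HSP47, stood at 1564 ± 20.2, 996 ± 35.0 and 1417 ± 0.649 FPKM. Both fell with IL-1β. P4ha2, a catalytic subunit of prolyl 4-hydroxylase, went against the list, at 105 ± 0.83, 198 ± 4.26 and 123 ± 3.37 FPKM (log2 difference 0.91, adjusted p = 2.56e-10). P4hb, the other subunit of that enzyme and a general disulfide isomerase, also rose with IL-1β (log2 difference 0.28, adjusted p = 4.12e-06), as did Ppib (log2 difference 0.10, adjusted p = 0.0227). The Ppib rise was lost when libraries were quantile normalized (-0.02, adjusted p = 0.665) or scaled to an equal FPKM sum (0.01, adjusted p = 0.885). With median-of-ratios scaling the co-culture count against IL-1β was 9 higher and 4 lower.

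Of 7 genes of procollagen export, 3 were lower and 1, Sar1b (log2 difference 0.13, adjusted p = 0.00491), was higher with IL-1β, near the 51.7% of all genes that passed. In the co-culture 2 were higher and 3 lower than with IL-1β, and none was higher and 2 were lower than in the control. The medians were -0.14, 0.05 and -0.08. Under the other scalings 1 to 2 were higher than with IL-1β, and 3 to 5 were lower than in the control. With libraries scaled to an equal FPKM sum the Sar1b rise was lost (0.04, adjusted p = 0.374). Of 5 tested genes of propeptide cleavage, which releases the fibril-forming part, 4 were lower with IL-1β and Tll1 was higher, at 1.80 ± 0.199, 6.95 ± 0.22 and 2.32 ± 0.119 FPKM (log2 difference 1.51, adjusted p = 4.05e-09). Pcolce, the enhancer of that cleavage, stood at 724 ± 15.1, 570.3 ± 22.3 and 682 ± 17.8 FPKM. With median-of-ratios scaling or quantile normalization 2 in place of 4 of these genes were lower with IL-1β. In the co-culture 2 were higher and 1 lower than with IL-1β, and 1 was higher and 1 lower than in the control.

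Of 7 tested collagen receptors and uptake genes, 2 were higher and 2 lower with IL-1β, near the share over all genes, with a median of 0.02. The 4 were named after their values were seen. Itga2, an integrin chain that binds collagen, rose from 1.07 ± 0.107 to 4.77 ± 0.107 FPKM (log2 difference 1.48, adjusted p = 3.47e-09) and stood at 2.12 ± 0.095 FPKM in the co-culture. Ddr2, a receptor kinase for fibrillar collagen, rose from 54.2 ± 1.44 to 69.3 ± 0.7 FPKM and stood at 49.6 ± 1.21 FPKM in the co-culture. Itga11, another collagen-binding integrin chain, fell from 58.4 ± 2.09 to 48.7 ± 1.74 FPKM (log2 difference -0.26, adjusted p = 0.000157) and stood at 47.4 ± 1.09 FPKM. Ddr1, the sister kinase of Ddr2, fell from 11.1 ± 0.572 to 8.18 ± 0.504 FPKM (log2 difference -0.39, adjusted p = 7.05e-05) and stood at 10.7 ± 0.212 FPKM. In the co-culture 2 of the 7 were higher and 3 lower than with IL-1β, and 2 were higher and 2 lower than in the control. With median-of-ratios scaling 1 was higher and 4 lower than with IL-1β, and under all 3 other scalings 1 was higher than in the control. Of 21 regulators of collagen genes, 7 were higher and 10 lower with IL-1β, 10 higher and 5 lower in the co-culture than with IL-1β, and 6 higher and 3 lower in the co-culture than in the control. The medians were -0.09, 0.09 and 0.03, beside -0.04, 0.06 and 0.02 over all genes. The last count was 3 higher and 4 lower with libraries scaled to an equal FPKM sum and 4 higher and 5 lower with quantile normalization. Members of the TGF-β pathway, named after their values were seen, went both ways. Tgfb3, a growth factor of the TGF-β family that raises collagen synthesis, stood at 48.8 ± 0.251 FPKM in the control, 17.1 ± 0.316 FPKM with IL-1β and 39.8 ± 1.28 FPKM in the co-culture. Tgfb1, a ligand of the same family, stood higher with IL-1β, at 53.6 ± 1.69, 68.6 ± 2.45 and 59.7 ± 2.82 FPKM (log2 difference 0.35, adjusted p = 2.79e-05). The receptor gene Tgfbr1 (log2 difference 0.31, adjusted p = 0.000177) and the signal transducer Smad3 (log2 difference 0.47, adjusted p = 2.21e-07) were also higher with IL-1β. Besides Tgfb3, Tgfb2 (log2 difference -0.98, adjusted p = 4.32e-08), Tgfbr2 (-0.165, adjusted p = 0.00145) and Smad2 (-0.148, adjusted p = 0.00676) were lower. Smad4 and Smad7 did not pass. Outside that pathway, the regulators higher with IL-1β were Cebpb (0.71), Ets1 (0.63), Cebpd (0.39) and Nfya (0.20). Those lower outside it, all named here, were Creb3l1 (-0.53), Scx (-0.36), Rfx1 (-0.35), Nfyb (-0.27), Ybx1 (-0.185) and Sp1 (-0.12). The Sp1 fall was lost with median-of-ratios scaling (adjusted p = 0.192) and quantile normalization (adjusted p = 0.109). The Nfya rise was lost with libraries scaled to an equal FPKM sum (adjusted p = 0.0831).

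With IL-1β, and in the co-culture against IL-1β, the collagen-degrading enzymes moved against the fibrillar genes. All 4 tested (Mmp2, Mmp9, Mmp13 and Mmp14) were higher with IL-1β, and all 4 were lower in the co-culture than with IL-1β. Mmp13, a collagenase of fibrillar collagen, stood at 73.2 ± 0.654 FPKM in the control, 779.7 ± 33.0 FPKM with IL-1β and 71.6 ± 0.492 FPKM in the co-culture. Mmp2, a gelatinase that also acts on collagen IV, stood at 567 ± 3.72, 1223 ± 21.0 and 688 ± 8.33 FPKM. Mmp9 stood at 0.59 ± 0.0346, 621 ± 8.1 and 17.0 ± 1.07 FPKM, and reached the mean of 1 FPKM only through the groups with IL-1β. Against the control 2 were higher in the co-culture, Mmp9 (log2 difference 3.50, adjusted p = 1.07e-12) and Mmp2 (0.28, adjusted p = 2.36e-05). Only 1 was lower, Mmp14 (-0.18, adjusted p = 0.000814), the direction of most fibrillar genes there. These counts were the same under the 3 other scalings.

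Markers of other cells that the cultures could hold also differed between groups. The 6 macrophage and leukocyte markers summed to 16.4 to 17.1 FPKM in the control, 27.9 to 31.6 FPKM with IL-1β and 19.1 to 20.1 FPKM in the co-culture, most of it Cd14. The 4 Schwann cell markers summed to 72.7 to 77.1, 44.1 to 45.9 and 49.9 to 52.8 FPKM, nearly all S100b. The 3 measured keratinocyte markers summed to 1.22 to 1.55, 1.12 to 1.47 and 1.71 to 2.17 FPKM. The part of these cells in the collagen differences was not tested.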

How the data were processed

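Polyadenylated RNA of 9 libraries of rat synovial fibroblasts was sequenced, per the labels' protocols. The authors deposited FPKM values for 17298 genes, 1 column per library, per the file headers. The build named is GRCm38, a mouse genome, per the submitters' processing notes, while the table's gene identifiers are those of the rat, and which sequence the reads were aligned to was not settled. The aligner, counter and annotation: not given in the sources used here. Depth is unknown: of 140 low genes examined for steps of whole reads, only 7 to 12 could be compared between control library 1 and another library. Precision therefore rests on 3 libraries per group.

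Genes with a mean of at least 1 FPKM (11372) were transformed as log2(FPKM + 1), which understates the change of low genes. They were fitted with limma 3.58.1 in R 4.3.3 over all 9 libraries, 1 coefficient per group, with mean-variance trend and robust settings. P-values were two-sided and Benjamini-Hochberg adjusted over those genes, with a threshold of 0.05. Folds are ratios of mean FPKM. Ratios between chains were tested by exact permutation (scipy 1.17.1), and the fit was tested on simulated data. The members, classes, gene lists and marker lists were chosen with earlier results of these data known. Every member with a mean of at least 1 FPKM was named; of other lists, up to 3 genes by level and those moving against the list, except where stated. The alternatives were other pseudocounts, filters, scalings and variance models, a fit on 2 groups, a replicate block and leaving out each library. The library scaling to an equal FPKM sum was chosen after seeing the data. RefSeq GRCr8 gave names, neighbours and promoters.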

Additional observations from a re-analysis of the deposited data

How the results depend on the processing

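Of 72 pairs of a collagen gene and a comparison, 61 kept their call under every alternative that could be run for them (up to 19), 11 changed it under at least 1, and no passing difference changed sign under any. Without a filter on low values 2 collagen genes in place of 1 were higher in the co-culture than in the control, the added gene being Col7a1. Every other count of collagen genes stayed within 1.5 times its value. IL-1β against control gave 17 to 25 passing genes, the co-culture against IL-1β 17 to 23 and the co-culture against control 14 to 19. The lowest of these counts came from the filter at a mean of 5 FPKM, which tested 19 collagen genes in place of 24, and the highest from no filter, which tested 42. Leaving out 1 library gave 21, 17 to 21 and 15 to 18 passing genes. The calls lost or gained were the small differences of Col4a5, Col8a2, Col9a1, Col12a1, Col14a1, Col16a1, Col17a1 and Col18a1, and Col1a2 between co-culture and control, with values beside each result. The cause was not tested. The replicate numbers were not shown to pair the libraries, since libraries with the same number correlated in their deviations from the group mean at -0.046 to 0.189 and others at -0.221 to 0.133. With the replicate number as a block the counts were 21, 21 and 16, and the gene lost was Col17a1 between co-culture and control (adjusted p = 0.0809). Median-of-ratios scaling moved the median of all genes to 0 in each comparison within 0.003, and an equal FPKM sum moved it to -0.127, 0.091 and -0.035. Depth limits could not be given without counts.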
